A study of Homo sapiens with 6 samples.

Results

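The human mitochondrial chromosome carries 37 genes, and all 37 were followed here in the established human glioblastoma cell line LN-229. They were chosen by symbol (MT- followed by ND, CO, CYB, ATP, RNR or T) among the 58174 genes of each table. They comprise 13 mRNAs, 2 rRNAs and 22 tRNAs. The study compared 3 libraries of a group labelled control-NC treated with 3 libraries of a group labelled sh-JMJD1C treated, which usually stands for a short hairpin RNA against JMJD1C, to find targets of this JmjC-domain histone demethylase. All 6 libraries carry the same cell line name, and the labels give no vector, hairpin sequence, clone or time of treatment. Nuclear-enriched RNA was sequenced after ribosomal RNA had been removed. Nothing in the labels says whether libraries within a group are separate cultures, so p-values reflect only how much these libraries varied, which may be technical.

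Mitochondrial DNA is a small circle that is read from promoters on both strands into long precursor RNAs. The tRNAs lie between most of the mRNAs and rRNAs, and cutting the precursor at the ends of the tRNAs frees the RNAs on either side. The mRNAs encode subunits of respiratory complexes I, III, IV and V, which carry out oxidative phosphorylation, and the rRNAs and tRNAs serve the ribosome inside the organelle that translates them. These RNAs are made and used outside the nucleus.

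The recovered library totals ran from 544442 reads in control 1 to 2960454 in control 3. JMJD1C itself had 145, 114 and 236 RPM (its reads relative to the total of the library) in control 1 to 3, against 45.3, 8.33 and 24.1 in sh-JMJD1C 1 to 3, so the groups did not overlap. Its log2 fold change was -1.82 with an adjusted p of 0.118 in the limma fit of FPKM, and -2.49 with an adjusted p of 0.0253 in limma-voom on recovered reads. FPKM is the deposited unit, fragments scaled to gene length and library total. Of 8 astroglial and glioma markers, 6 had reads, with S100B and OLIG2 at 0. These markers summed to between 1802 and 3029.9 RPM in the controls, and to between 895 and 2248 in the sh-JMJD1C libraries. EGFR, VIM and CD44 gave nearly all of the control mean of 2449 RPM, with 1309, 836 and 301 RPM. In the sh-JMJD1C libraries they gave 416, 715 and 265 of 1402 RPM. NES had means of 2.01 RPM in the controls and 5.30 RPM in the sh-JMJD1C libraries, and GFAP and SOX2 made up the small rest. Of 13 markers of immune, endothelial, epithelial, neuronal and oligodendrocyte cells, 10 had reads, with AIF1, PECAM1 and MOG at 0, and they summed to between 38.2 and 46.4 RPM in the controls, and to between 13.2 and 27.4 in the sh-JMJD1C libraries. MBP, a myelin gene, alone gave 33.7 of the mean of 42.3 RPM in the controls and 10.2 of 18.4 RPM in the sh-JMJD1C libraries. Of 8 long non-coding RNAs, most of them known to be kept in the nucleus, 7 had reads, with MEG3 at 0, and they summed to between 14081 and 27279 RPM in the controls, and to between 1296 and 3491 in the sh-JMJD1C libraries. MALAT1 alone gave 17947 of the mean of 20143 RPM in the controls and 1893 of 2367 RPM in the sh-JMJD1C libraries, and the groups overlapped for KCNQ1OT1, PVT1 and SNHG14. In control 1, 25.0% of reads fell on ENSG00000281181, annotated as a long non-coding RNA gene, against 1.32% in control 2 and at most 0.000365% in the other libraries. In sh-JMJD1C 2 and 3, 15.7% and 18.5% of reads fell on RN7SL genes, which encode the RNA of the signal recognition particle, against 0.378% to 1.77% in the other 4 libraries. The part of these differences between libraries in the mitochondrial values below was not tested.

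Mitochondrial genes took 7.04%, 8.70% and 2.93% of reads in control 1 to 3, against 12.6%, 1.33% and 1.70% in sh-JMJD1C 1 to 3. The sh-JMJD1C group therefore held both the highest and the lowest shares of the series, and the controls lay between them. The means were 6.22% ± 2.97 in the controls, against 5.22% ± 6.42 in the sh-JMJD1C libraries (SD, n = 3 each), a difference of -1.003 percentage points (two-sided exact permutation test, p = 0.8). Relative to reads on nuclear protein-coding genes the difference was -2.23, as a share of summed FPKM it was -4.92, and without both libraries numbered 1 it was -4.30 percentage points. With 3 libraries against 3, the exact permutation test cannot go below p = 0.1, and 16 single values of this kind were tested and adjusted together. Counting error was small beside the spread: the exact binomial 95% interval ran from 12.6% to 12.7% in sh-JMJD1C 1 and from 1.31% to 1.35% in sh-JMJD1C 2. In bulk RNA such as this, fewer cells of a kind and less RNA per cell cannot be told apart, and neither can a change in the cells and a change in how much RNA from outside the nucleus entered a library.

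Nearly all of these reads lay on the mRNAs, with 554109 reads over the 6 libraries against 10357 on tRNAs and 518 on rRNAs. The mRNAs took 6.96%, 8.62% and 2.89% of reads in the controls, against 12.5%, 1.24% and 1.45% in the sh-JMJD1C libraries (exact permutation p = 0.8). The tRNAs followed another order, with 0.0672%, 0.0724% and 0.0309% in the controls, against 0.107%, 0.0877% and 0.250% in the sh-JMJD1C libraries. For the tRNAs the groups did not overlap, although sh-JMJD1C 2 and 3 had the least mRNA and sh-JMJD1C 1 the most. The tRNA means were 0.0569% ± 0.0226 and 0.148% ± 0.0886 (SD, n = 3 each), a difference of 0.0912 percentage points at the smallest p that the exact permutation test allows (p = 0.1, adjusted p = 0.4). That separation was lost relative to reads on nuclear protein-coding genes (difference 0.1203 percentage points, exact permutation p = 0.2) and as a share of summed FPKM (0.595, p = 0.6).

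**Figure D1:**
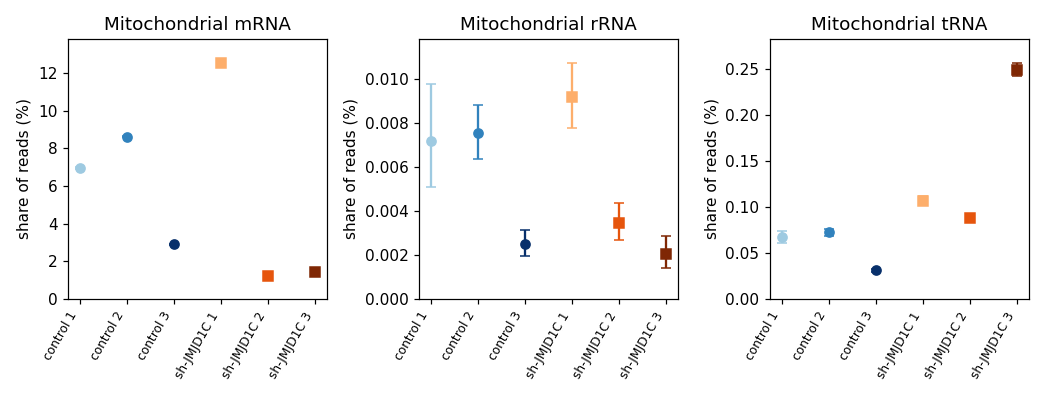
Percent of all recovered reads of a library (linear axes from the base) on the mitochondrial mRNAs, rRNAs and tRNAs, with 1 point per library. Bars span the exact Clopper-Pearson interval of each library, which covers counting error only. The mRNA shares of the 3 sh-JMJD1C libraries lie on both sides of the controls, whereas their tRNA shares of 0.0877% to 0.250% all lie above the controls.

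The 13 mRNAs were among the most abundant RNAs in every library, although these are RNAs of the organelle in nuclear-enriched material. Their median FPKM was 4834, 5925 and 2359 in control 1 to 3, against 8748, 906 and 1122 in sh-JMJD1C 1 to 3. That median lay at or above percentile 99.6 of all genes above 0 in each library. Of the 13, 11 had their highest RPM in sh-JMJD1C 1, the exceptions being MT-ND4L and MT-ATP8, which peaked in control 1. All 13 were lowest in sh-JMJD1C 2 or sh-JMJD1C 3. For 9 of them, both of these libraries lay below each of the other 4 libraries. The exceptions were MT-ND3, MT-CO3, MT-ND4L and MT-ATP8.

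Complex IV, cytochrome c oxidase, receives 3 subunits from this chromosome, and 1 of them was the most abundant mRNA throughout. MT-CO2, which binds cytochrome c in that complex, ranked first by FPKM in all 6 libraries, with 10145, 17123 and 4615 in the controls, against 27379, 2384 and 2950.3 in the sh-JMJD1C libraries. Only sh-JMJD1C 1 exceeded the controls, and the other two sh-JMJD1C libraries lay below them. MT-CO1, the catalytic subunit, had 6436, 7692 and 2231 FPKM in the controls, against 8598, 916 and 1054 in the sh-JMJD1C libraries. MT-CO3 had 4470.0, 7227 and 2685 FPKM in the controls, against 13356, 1975 and 2726 in the sh-JMJD1C libraries. In sh-JMJD1C 3 this level lay inside the range of the controls, as it did for MT-ND3, MT-ND4L and MT-ATP8. Relative to the median mRNA of its own library, MT-CO3 stood at 92.5%, 122% and 114% in the controls, compared with 153%, 218% and 243% in the sh-JMJD1C libraries. It moved from rank 8, 6 and 5 among the 13 mRNAs to rank 4, 2 and 2.

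Complex I, NADH dehydrogenase, receives 7 subunits. MT-ND4, one of its proton-pumping membrane subunits, had 9309, 11240 and 3229 FPKM in the controls, against 16942, 1014 and 1394 in the sh-JMJD1C libraries. MT-ND1, at the junction of the membrane and peripheral arms, had 8667, 12444 and 2864 FPKM in the controls, against 15540, 1691 and 1122 in the sh-JMJD1C libraries. MT-ND5, another pumping subunit, had 5054, 5925 and 2015 FPKM in the controls, against 8748, 868 and 752 in the sh-JMJD1C libraries. All 3 were highest in sh-JMJD1C 1 and lowest in sh-JMJD1C 2 and 3. MT-ND2 had 4403, 4265 and 1985 FPKM in the controls, against 5603, 699 and 643 in the sh-JMJD1C libraries. MT-ND3 was the lowest mRNA in control 1 and control 3, with 2203 and 1306 FPKM, and had 2398 FPKM in control 2 and 3671, 559 and 1333 in the sh-JMJD1C libraries. MT-ND6, the one mRNA encoded on the other strand, had 6910, 8017 and 2033 FPKM in the controls, against 9292, 906 and 896 in the sh-JMJD1C libraries. Relative to the mRNAs of the other strand, per length, its log2 ratio was 0.19, 0.09 and -0.34 in the controls, against -0.25, -0.27 and -0.52 in the sh-JMJD1C libraries, and the groups overlapped (difference -0.33, exact permutation p = 0.3).

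MT-CYB, the cytochrome b of complex III, had 4834, 5396 and 2359 FPKM in the controls, against 8530.3, 980.2 and 1174 in the sh-JMJD1C libraries. MT-ATP6, a proton-channel subunit of ATP synthase (complex V), had 4386, 4383 and 2932 FPKM in the controls, against 8906, 701 and 1398 in the sh-JMJD1C libraries. Both mRNAs were again highest in sh-JMJD1C 1 and lowest in sh-JMJD1C 2.

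**Figure D2:**
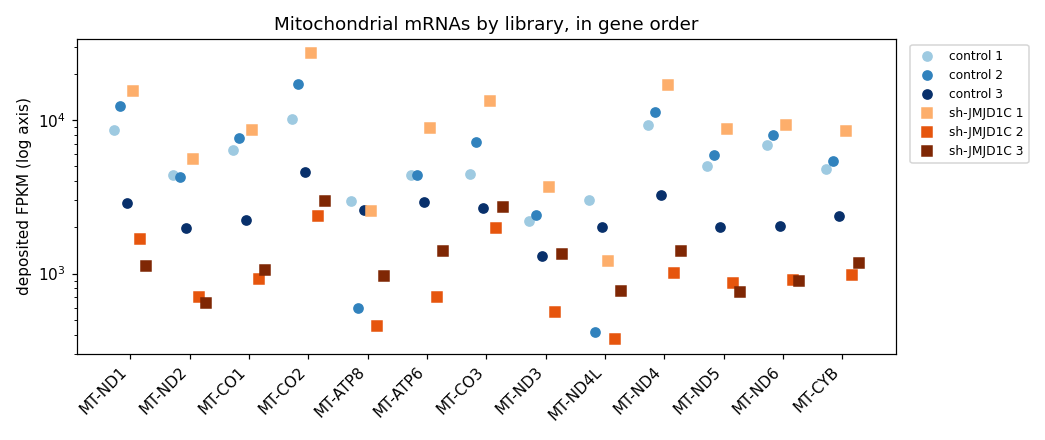
Deposited FPKM (log axis) of the 13 mitochondrial mRNAs in gene order, with 1 point per library, blue for control and orange to brown for sh-JMJD1C. MT-CO2 is highest in each library, sh-JMJD1C 1 leads for 11 of the 13 mRNAs, and sh-JMJD1C 2 and 3 are lowest for most.

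Within the mRNA pool, the balance between complexes differed by a few percentage points. Complex I subunits made up 54.3%, 51.3% and 47.0% of the summed mRNA FPKM in control 1 to 3, against 46.8%, 45.2% and 40.2% in sh-JMJD1C 1 to 3. Complex IV subunits made up 28.9%, 36.8% and 29.01% in the controls, against 37.9%, 39.0% and 39.2% in the sh-JMJD1C libraries. The groups did not overlap for either complex, although control 3 and sh-JMJD1C 1 were close for complex I and control 2 and sh-JMJD1C 1 for complex IV. The means were 50.9% ± 3.71 and 44.1% ± 3.42 for complex I, and 31.6% ± 4.51 and 38.7% ± 0.725 for complex IV (SD, n = 3 each). Each difference, -6.79 and 7.12 percentage points, had the smallest p the exact permutation test allows (p = 0.1, adjusted p = 0.4). Without the mRNAs that overlap another gene (MT-ATP6, MT-ATP8, MT-CO3, MT-ND4 and MT-ND4L) the differences were -3.82 and 3.20 percentage points, and the groups overlapped (exact permutation p = 0.2 for each). These are shares of 1 total, so a higher share of a complex lowers the shares of the others. Complex III, which is MT-CYB alone here, took between 6.19% and 7.25% in all libraries, and complex V took between 5.72% and 16.8%, with overlapping groups (exact permutation p = 0.6 and p = 0.8).

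Some neighbouring mRNA genes overlap on the chromosome. MT-ATP8 and MT-ATP6, both subunits of ATP synthase, overlap by 46 bases, and MT-ND4L and MT-ND4, both membrane subunits of complex I, overlap by 7. The last bases of each upstream gene are shown 5′ to 3′ on the plus strand, since reads there can belong to either gene. Capitals mark the overlap with the downstream gene, which opens with the start codon ATG. The windows are chrM:8513-8572 and chrM:10737-10766 in GRCh38 (hg38), from GENCODE release 29.
MT-ATP8 end: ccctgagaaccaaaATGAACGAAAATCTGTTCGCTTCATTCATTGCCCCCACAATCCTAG
MT-ND4L end: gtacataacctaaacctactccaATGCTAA

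The upstream, shorter partners varied widely between libraries of the same group. MT-ND4L had 489, 247 and 1756 reads in control 1 to 3, against 599, 212 and 380 in sh-JMJD1C 1 to 3. Per length, that was 32.5%, 3.69% and 61.8% of MT-ND4 in the controls, against 7.10%, 36.7% and 55.3% in the sh-JMJD1C libraries. MT-ATP8 had 336, 248 and 1594 reads in the controls, against 884, 181 and 330 in the sh-JMJD1C libraries. Per length, that was 67.98%, 13.6% and 88.7% of MT-ATP6 in the controls, against 28.6%, 65.0% and 68.7% in the sh-JMJD1C libraries. Both ratios were lowest in control 2, next lowest in sh-JMJD1C 1 and highest in control 3, with sh-JMJD1C 3 the highest of its group. Control 2 and sh-JMJD1C 1 were also the libraries with the largest mitochondrial shares. The groups overlapped for both ratios, which were added after the values were seen (exact permutation p = 0.7 and p = 0.9).

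**Figure D3:**
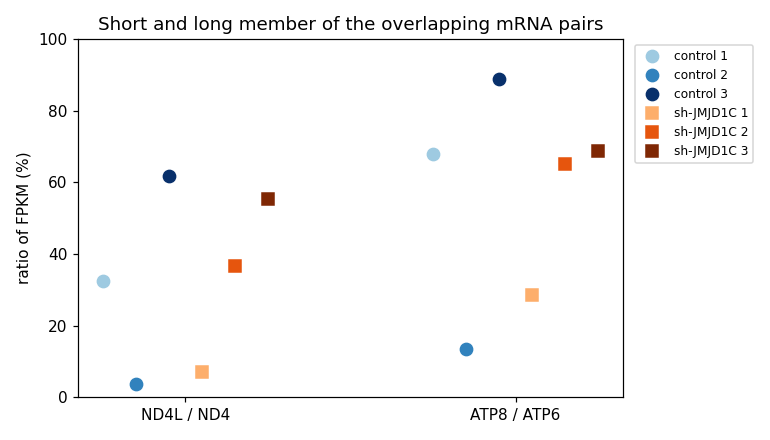
Level of MT-ND4L as a percent of MT-ND4, and of MT-ATP8 as a percent of MT-ATP6, both per gene length, with 1 point per library. Control 2 at 3.69% and 13.6% and sh-JMJD1C 1 at 7.10% and 28.6% are the lowest, and each group spans most of the range.

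The rRNAs, MT-RNR1 of the small and MT-RNR2 of the large ribosomal subunit, were nearly absent from these rRNA-depleted libraries. MT-RNR1 had 12, 75 and 27 reads in control 1 to 3, against 22, 13 and 7 in sh-JMJD1C 1 to 3. MT-RNR2 had 27, 76 and 47 reads in the controls, against 132, 53 and 27 in the sh-JMJD1C libraries. Per length, the rRNAs together stood at 0.466%, 0.396% and 0.392% of the mRNAs in the controls, compared with 0.333%, 1.26% and 0.642% in the sh-JMJD1C libraries (exact permutation p = 0.4). The ratio of MT-RNR2 to MT-RNR1 per length was 1.38, 0.620 and 1.07 in the controls, against 3.67, 2.49 and 2.36 in the sh-JMJD1C libraries. The groups did not overlap for that ratio, with a log2 difference of 1.52 (exact permutation p = 0.1, adjusted p = 0.4). It rests on 7 to 132 reads a library, and the part of the rRNA depletion in it was not tested.

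Of the 22 tRNA genes, 17 had reads in at least 1 library, and 10 of them had reads in every library. MT-TN, MT-TK, MT-TG, MT-TR and MT-TL2 had 0 reads in all 6 libraries, where a count of 0 allows up to 3 reads, or between 1.013 and 5.51 RPM. Each tRNA carries 1 amino acid to the mitochondrial ribosome and is between 59 and 75 bases long here. Whether reads came from mature tRNA or from its precursor was not tested. The tRNAs on which the values below turn are shown 5′ to 3′ in the sense of the tRNA, with T for U, from the GENCODE release 29 transcripts on GRCh38 (hg38). Capitals mark the anticodon that pairs with the mRNA codon. MT-TP, MT-TM, MT-TQ, MT-TI and MT-TC had the smallest p-values of the tRNAs on recovered reads, MT-TY had the most reads over the controls together, and MT-TH and MT-TV were detected in control 3 and sh-JMJD1C 3 alone. Their places are chrM:15956-16023 (MT-TP, minus strand), chrM:4402-4469 (MT-TM, plus), chrM:4329-4400 (MT-TQ, minus), chrM:4263-4331 (MT-TI, plus), chrM:5761-5826 (MT-TC, minus), chrM:5826-5891 (MT-TY, minus), chrM:12138-12206 (MT-TH, plus) and chrM:1602-1670 (MT-TV, plus).
MT-TP: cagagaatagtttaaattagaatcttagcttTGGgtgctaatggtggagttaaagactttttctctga
MT-TM: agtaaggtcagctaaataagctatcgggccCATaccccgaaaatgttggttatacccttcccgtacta
MT-TQ: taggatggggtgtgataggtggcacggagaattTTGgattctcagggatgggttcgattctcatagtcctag
MT-TI: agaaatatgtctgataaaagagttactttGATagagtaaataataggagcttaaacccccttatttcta
MT-TC: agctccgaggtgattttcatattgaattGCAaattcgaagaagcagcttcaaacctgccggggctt
MT-TY: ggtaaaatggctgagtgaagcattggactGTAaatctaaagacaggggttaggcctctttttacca
MT-TH: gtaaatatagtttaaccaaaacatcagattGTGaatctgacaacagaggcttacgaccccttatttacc
MT-TV: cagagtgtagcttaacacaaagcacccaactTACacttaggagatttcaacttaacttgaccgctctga

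MT-TP, the tRNA for proline, lies at the edge of the control region and had the most reads of all tRNAs in control 3 and in sh-JMJD1C 2 and 3. It had 92, 350 and 254 reads in control 1 to 3, against 329, 823 and 2331 in sh-JMJD1C 1 to 3. That was 169, 175 and 85.8 RPM in the controls, against 196, 429 and 1404 RPM in the sh-JMJD1C libraries, with exact 95% intervals of 157 to 194 RPM in control 2 and 176 to 219 RPM in sh-JMJD1C 1. Each sh-JMJD1C library lay above each control in RPM, but the intervals of sh-JMJD1C 1 and control 2 overlapped, and after scaling between libraries the groups overlapped too. MT-TP made up 25.1%, 24.1% and 27.7% of tRNA reads in the controls, against 18.4%, 48.9% and 56.2% in the sh-JMJD1C libraries. Per length, it stood at 40.7%, 33.9% and 49.7% of the mRNAs in the controls, compared with 26.3%, 580.4% and 1627% in the sh-JMJD1C libraries, so sh-JMJD1C 1 lay below the controls on that measure (log2 difference 2.83, exact permutation p = 0.4). The log2 fold change of MT-TP was 2.16 (SE 0.93, adjusted p = 0.257) in the limma fit of FPKM and 2.26 (SE 0.69, adjusted p = 0.0641) in limma-voom on reads. On reads it was 0.77 with a trend over transcript length removed (adjusted p = 0.27) and 1.504 without sh-JMJD1C 3 (adjusted p = 0.156).

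MT-TC, the cysteine tRNA, was 1 of 2 members whose groups did not overlap in scaled FPKM. It had 20.2, 31.9 and 19.6 RPM in the controls, against 38.8, 75.0 and 57.2 in the sh-JMJD1C libraries, from 11, 64 and 58 reads and 65, 144 and 95 reads. Its mean was 23.9 ± 6.95 RPM in the controls, against 57.0 ± 18.1 RPM in the sh-JMJD1C libraries (SD, n = 3 each). The exact 95% interval of sh-JMJD1C 1, 29.9 to 49.4 RPM, overlapped those of control 1 (10.1 to 36.2) and control 2 (24.6 to 40.8). Those of sh-JMJD1C 2 and 3 lay above the intervals of all controls. The log2 fold change was 1.55 (SE 0.54, adjusted p = 0.194) in limma on FPKM and 1.65 (SE 0.48, adjusted p = 0.0589) in limma-voom on reads, not past the threshold of 0.05 in either. With the length trend removed from the reads it was 0.09 (adjusted p = 0.904). The other was MT-TQ, the glutamine tRNA, with 58.8, 78.8 and 15.5 RPM in the controls, against 165, 56.8 and 180.1 in the sh-JMJD1C libraries. Its groups overlapped in RPM and separated only after scaling between libraries (log2 fold change 2.07, SE 0.66, adjusted p = 0.070 in limma-voom). MT-TI, the isoleucine tRNA, overlaps MT-TQ at its end on the other strand and had 60.6, 53.9 and 12.8 RPM in the controls, against 115, 38.5 and 158 in the sh-JMJD1C libraries (log2 fold change 1.99, SE 0.68, adjusted p = 0.085 in limma-voom). MT-TM, the methionine tRNA next to them, had 34.9, 6.49 and 13.5 RPM in the controls, against 20.3, 58.9 and 175 in the sh-JMJD1C libraries (log2 fold change 2.83, SE 0.83, adjusted p = 0.0607 in limma-voom). For MT-TM, sh-JMJD1C 1 lay inside the range of the controls. With the length trend removed the log2 fold changes of MT-TQ, MT-TI and MT-TM on reads were 0.55, 0.46 and 1.25. Without control 3, those of MT-TQ and MT-TI were 0.93 and 0.82. The use of strand in counting is not given in the sources used here, so reads where genes overlap cannot be assigned to a strand.

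The tRNAs did not share 1 order of libraries. MT-TY, the tyrosine tRNA, had 237, 359 and 44.3 RPM in the controls, against 493, 166 and 195 in the sh-JMJD1C libraries, highest in sh-JMJD1C 1 as the mRNAs were. MT-TW and MT-TA, for tryptophan and alanine, had 7.35, 4.49 and 23.3 RPM and 7.35, 4.99 and 30.4 RPM in the controls. In the sh-JMJD1C libraries they had 10.7, 24.0 and 51.8 RPM and 13.7, 24.5 and 42.8 RPM. Of the 17 detected tRNAs, 10 had their highest RPM in sh-JMJD1C 3, and several of these were read mainly in control 3 and sh-JMJD1C 3. MT-TV, for valine, had 10 reads in control 3 and 55 in sh-JMJD1C 3 and 0 in the other 4 libraries. MT-TH, for histidine, had 25 and 115 reads in those 2 libraries and 0 elsewhere, and MT-TS2, a serine tRNA, had 1 and 10. MT-TT, for threonine, had 1, 1 and 42 reads in the controls, against 0, 3 and 146 in the sh-JMJD1C libraries. MT-TF, for phenylalanine, had 24, 0 and 25 reads in the controls, against 3, 0 and 37 in the sh-JMJD1C libraries. MT-TE, for glutamate, had 9, 1 and 72 reads and 12, 1 and 21 reads. MT-TS1, the other serine tRNA, had 11.02, 8.98 and 5.07 RPM in the controls, against 5.37, 2.60 and 2.41 in the sh-JMJD1C libraries, with control 3 below sh-JMJD1C 1. MT-TD and MT-TL1, for aspartate and leucine, stayed at or below the 3-read floor in every library, so they support no comparison.

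**Figure D4:**
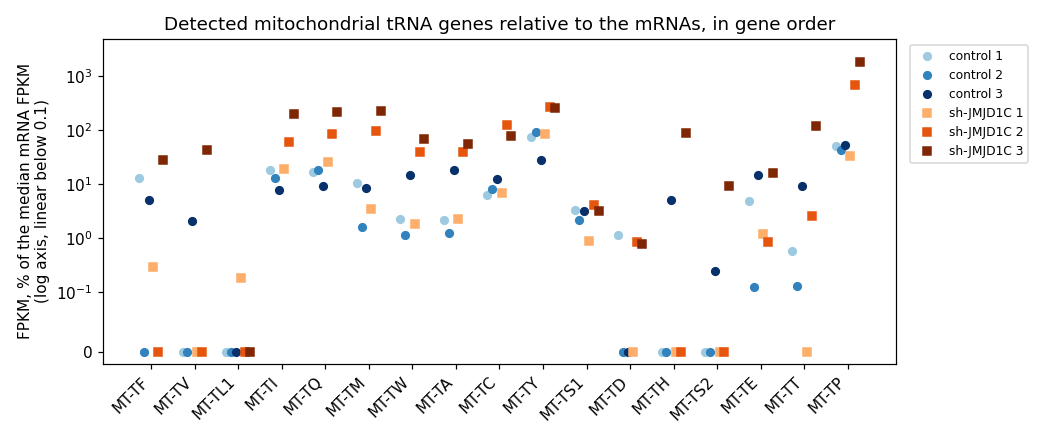
FPKM of the 17 detected mitochondrial tRNA genes in gene order, as a percent of the median mRNA FPKM of the same library (log axis, linear below 0.1), with 1 point per library and 0 shown at the base. Points of sh-JMJD1C 2 and 3 stand above the controls for MT-TI, MT-TQ, MT-TM, MT-TW, MT-TA, MT-TC, MT-TY and MT-TP, and those of sh-JMJD1C 1 lie close to the controls.

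Set against the mRNAs per length, all tRNAs together stood at 7.29%, 6.35% and 8.08% in the controls, compared with 6.45%, 53.6% and 131% in the sh-JMJD1C libraries. The 3 controls and sh-JMJD1C 1 lay between 6.35% and 8.08%, with sh-JMJD1C 2 and 3 far above them (log2 difference 2.30, exact permutation p = 0.3). Other short RNAs also took larger shares in these 2 libraries. Small nuclear and small nucleolar RNA genes took 3.34% and 3.26% of reads there, against 0.362% to 0.965% in the other 4. The mRNAs of cytosolic ribosomal proteins, which are short too, took 8.36% and 8.41% there, against 2.97% to 4.70%. The part of RNA length in the tRNA values was not tested beyond the length correction given below.

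Across all genes, limma on FPKM called 34 of 18383 genes (0.185%) at an adjusted p below 0.05, 0.0598% of all genes higher and 0.125% lower, and 0 of the 32 detected mitochondrial genes. At an unadjusted p below 0.05 it had 1 of the 32, MT-TC, against 19.9% of all genes, and the groups did not overlap for 2 of the 32, against 26.7% of all genes. In limma-voom on recovered reads, which tested genes with at least 60 reads, 656 of 11877 genes (5.52%) passed, of all genes 3.71% in the higher and 1.81% in the lower direction, and 0 of 28 mitochondrial genes. There 5 of the 28 had an unadjusted p below 0.05, all tRNAs, against 30.8% of all genes, and the groups of 2 did not overlap, against 34.6%. The median log2 fold change in the FPKM fit was -0.65 over the 13 mRNAs, from -0.99 for MT-ND6 to 0.22 for MT-CO3, and 1.53 over the 17 detected tRNAs, 13 of them above 0. That tRNA median is the value of MT-TS2, which had 1 read in control 3 and 10 in sh-JMJD1C 3. MT-TL1, with 0 reads in the controls and 2 in sh-JMJD1C 1, and MT-TD, with 4 reads in all, are also among those above 0. The fit on reads leaves out MT-TL1, MT-TD, MT-TS1 and MT-TS2. Over all genes the median was -0.16, with 44.2% above 0. On reads the medians were -0.62 over the mRNAs, 1.39 over the 13 tRNAs tested and -0.08 over all genes, with 47.2% of all genes above 0.

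**Figure D5:**
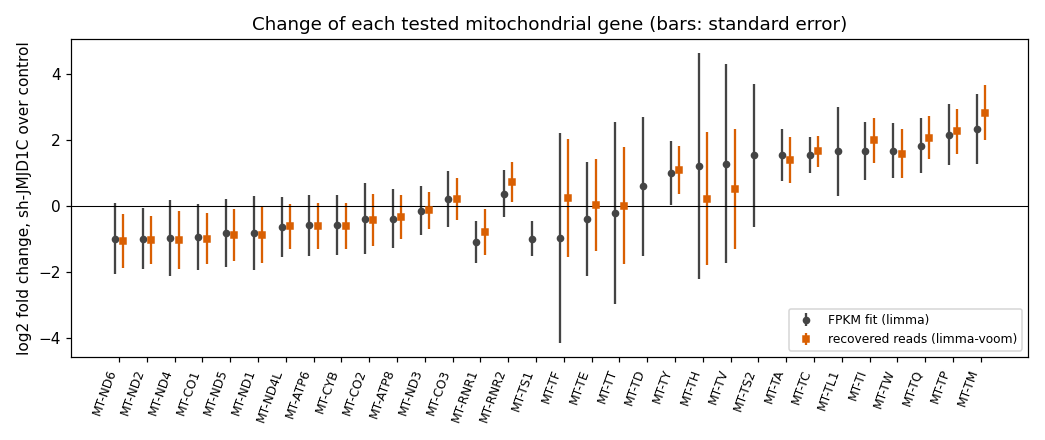
Log2 fold change (sh-JMJD1C against control) with its standard error for each mitochondrial gene, grouped as mRNA, rRNA and tRNA, from limma on FPKM (grey circles, 32 genes) and limma-voom on recovered reads (orange squares, 28 genes). The mRNAs lie mostly below 0, most tRNAs lie above it, and 0 genes passed an adjusted p of 0.05 in either fit.

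Those medians changed with a length correction, with the scaling and with single libraries left out. With a library left out, the mRNA median of the FPKM fit ran from -1.51 (without sh-JMJD1C 1) to -0.23 (without sh-JMJD1C 2), and the tRNA median from 0.985 (without control 2) to 2.07 (without sh-JMJD1C 1). A trend over transcript length was also removed from the read values of each library, a step added after the data were seen. The tRNA median then changed from 1.39 to -0.18 and the mRNA median from -0.62 to -1.50. Of 28 genes, 0 were called (3.42% of all genes) and 5 had an unadjusted p below 0.05 in limma-voom (26.2% of all genes). Those 5 were MT-TM, which was higher, and MT-RNR1, MT-ND2, MT-ND4L and MT-ND6, which were lower. Scaled to the summed mitochondrial mRNA instead, the tRNA median of the FPKM fit was 1.67, again with 0 genes called (0.316% of all genes) and 2 at an unadjusted p below 0.05 (6.89% of all genes). After quantile normalization the tRNA median was 0.20 and the mRNA median -2.08. Without sh-JMJD1C 1, limma-voom called 9 of 28 mitochondrial genes, against 20.1% of all genes, with MT-TM, MT-TW, MT-TC and MT-TP higher and MT-ND2, MT-ND5, MT-CO1, MT-ND4 and MT-ATP6 lower. Without control 2 it called MT-TQ and MT-TC, against 10.6% of all genes, and without both libraries numbered 1 it called MT-TM, MT-TC and MT-TP, against 8.38% of all genes. The FPKM fit called 0 mitochondrial genes without these libraries, with 9, 1 and 4 at an unadjusted p below 0.05, against 23.7%, 20.1% and 22.8% of all genes.

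Copies of mitochondrial DNA inserted in the nuclear chromosomes can take reads from these genes, and 88 of the 417 listed by symbol had reads. They took 0.283%, 0.487% and 0.101% of reads in the controls, against 0.620%, 0.0424% and 0.0416% in the sh-JMJD1C libraries, in the same order of libraries as the mRNAs apart from the lowest 2. That was 4.07%, 5.64% and 3.49% of the mitochondrial mRNA reads in the controls, against 4.96%, 3.43% and 2.87% in the sh-JMJD1C libraries (exact permutation p = 0.5). None of the 30 copies tested in the limma fit of FPKM was called (0.185% of all genes), with 4 at an unadjusted p below 0.05 (19.9% of all genes). Limma-voom called 0 of 12 (5.52% of all genes), with 0 at an unadjusted p below 0.05 (30.8% of all genes). The 5 with the highest mean FPKM were MTATP6P1, MTCO1P12, MTND2P28, MTCO2P12 and MTCO2P2. MTATP6P1 (chr1:633696-634376, GRCh38) is identical to MT-ATP6 at 671 of 681 aligned bases, and its reads equalled 26.2%, 45.9% and 18.6% of those of MT-ATP6 in the controls, against 35.8%, 32.5% and 15.7% in the sh-JMJD1C libraries. MTCO1P12 (chr1:631074-632616) is 98.7% identical to MT-CO1, and its reads equalled between 4.78% and 19.0% of those of MT-CO1. For MTND2P28 and MTCO2P12, at 98.37% and 98.24% identity, the reads equalled 7.08% to 17.4% of MT-ND2 and 1.53% to 3.15% of MT-CO2. MTCO2P2 is 91.11% identical and had under 1% of the reads of MT-CO2. How reads were divided between such copies and the mitochondrial genes is uncertain, and the percentage was highest for MT-ATP6.

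The nuclear genes that make and mature these RNAs were read from 6 lists of 81 genes, 77 of which were tested in each fit. Limma on FPKM called 0 of the 77 (0.185% of all genes), with 14 at an unadjusted p below 0.05, against 19.9% of all genes. Limma-voom on reads called 2, both higher in the sh-JMJD1C libraries, against 3.71% of all genes called higher. HSD17B10, a subunit of the RNase P that cuts the 5′ ends of mitochondrial tRNAs, had 29.4, 64.9 and 57.4 RPM in control 1 to 3, against 119, 478 and 298 in sh-JMJD1C 1 to 3. It rose by 2.73 on the log2 scale (SE 0.57, adjusted p = 0.026 in limma-voom), and 1.90 with the length trend removed (adjusted p = 0.0426). ATAD3B, a membrane protein associated with mitochondrial DNA nucleoids, had 34.9, 57.4 and 50.7 RPM in the controls, against 74.0, 364 and 231 in the sh-JMJD1C libraries, and rose by 2.34 (SE 0.61, adjusted p = 0.0472 in limma-voom). Its reads may be divided with those of the near-identical gene ATAD3A. The groups did not overlap for either gene, and in limma on FPKM their adjusted p was 0.125 and 0.169. On reads, both calls held without both libraries numbered 1 (adjusted p = 0.00964 and 0.0113), without control 2 or without sh-JMJD1C 1. They were lost without control 1 (0.0937 and 0.127), control 3 (0.105 and 0.159), sh-JMJD1C 2 (0.111 and 0.182) or sh-JMJD1C 3 (0.067 and 0.105).

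The transcription list, with 10 genes and 0 calls, held POLRMT, the mitochondrial RNA polymerase, with 14.7, 48.9 and 30.4 RPM in the controls, against 82.3, 88.6 and 47.6 in the sh-JMJD1C libraries (log2 fold change 1.57, SE 0.45, adjusted p = 0.0558 in limma-voom). TFAM, which packages mitochondrial DNA and starts its transcription, had 29.4, 11.97 and 98.0 RPM in the controls, against 4.77, 7.29 and 36.1 in the sh-JMJD1C libraries, with overlapping groups. The median of that list on reads was -1.05. The stability list, with 7 genes and 0 calls, summed to between 402 and 960.0 RPM in the controls, and to between 175 and 358 in the sh-JMJD1C libraries, so its sums did not overlap. In it, LRPPRC, which binds and stabilises mitochondrial mRNAs, had 176, 159 and 582 RPM in the controls, against 93.6, 48.4 and 140 in the sh-JMJD1C libraries (log2 fold change -1.18, adjusted p = 0.135). Its partner SLIRP had 20.2, 18.0 and 30.4 RPM in the controls, against 22.7, 27.6 and 57.8 in the sh-JMJD1C libraries. On reads, the median log2 fold change was 0.14 over the DNA replication list (1 of 13 called, ATAD3B), 0.01 over the RNA processing list (1 of 17 called, HSD17B10), 0.74 over the rRNA maturation list (0 of 15) and 0.05 over the tRNA modification list (0 of 15), against -0.08 over all genes.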

How the data were processed

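Nuclear-enriched, rRNA-depleted RNA of 3 control and 3 sh-JMJD1C libraries was analysed, grouped by the labels. The authors deposited FPKM per gene, and the full-library values were used. The submitters' processing notes list Bowtie 0.12.2 and hg38 without saying what each was used for. How genes were counted, on which annotation and strand and with which multimapping rule, was not given in the sources used here. The gene IDs were matched to GENCODE release 29 (57836 of 58174).

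Whole reads were recovered as FPKM times gene length times library total. A gene took the summed length of its annotated transcripts (93.9% of detected genes) where that made values below 1000 reads whole to within 0.05. Otherwise it took the smallest length that did, so the 100.0% of values that were whole does not test the recovery. For the 32 detected mitochondrial genes the length was that of their 1 annotated transcript. Totals were 544442, 2004255 and 2960454 reads in control 1 to 3, against 1676755, 1919675 and 1660561 in sh-JMJD1C 1 to 3. A count of 0 allows 3 reads (5.51, 1.50, 1.013, 1.79, 1.56 and 1.81 RPM in that order). Intervals are exact Clopper-Pearson intervals at 95%, which like the floor cover counting error only.

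FPKM divided by median-ratio factors (from genes averaging FPKM 1 or more) was tested as log2(scaled FPKM + 0.5) for genes with a mean of at least 0.5, with limma 3.58.1 in R 4.3.3, the group as the only term, the trend option, two-sided, and Benjamini-Hochberg adjustment over all genes at 0.05. Fold changes on that scale understate low genes. Limma-voom was fitted to recovered reads, for genes with 60 or more over all libraries, with median-ratio factors from genes averaging 20 or more. Its length-corrected version removed a lowess trend (span 0.3) per library. Shares and ratios were compared with two-sided exact permutation tests, adjusted over 16 values. The fits were tested on counts simulated from a common mean profile scaled to the library totals. Apart from the gene changes put in, the simulated libraries did not differ in composition or length trend. Such differences between the real libraries are therefore not covered by that test. Alternatives were other pseudocounts, filters, scalings and denominators, a replicate block and leaving out libraries.

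The named genes were all 37 members, JMJD1C, POLRMT, TFAM, LRPPRC, SLIRP, any called gene of the 6 lists, and the 5 most abundant nuclear copies. The members and lists were chosen with earlier results of these data known. The ratios of MT-ND4L to MT-ND4, MT-ATP8 to MT-ATP6, MT-TP to mRNA and nuclear copies to mRNA, the length correction, and the block and leave-out fits on reads were chosen after seeing the data. No genes were dropped beyond the stated filters.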

Additional observations from a re-analysis of the deposited data

How the results depend on the processing

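Over the alternatives tried, the number of mitochondrial genes called was 0 under every pseudocount, filter and scaling of the FPKM fit and with each library left out of it. On recovered reads it ran from 0 (0.271% of all genes called, without sh-JMJD1C 2) to 9 (20.1%, without sh-JMJD1C 1) with a library left out, and was 3 without both libraries numbered 1 (8.38%). Deviations of same-numbered libraries correlated at 0.009, 0.14 and 0.22, against -0.265 to 0.125 for libraries of different number. Control 1 and sh-JMJD1C 1 correlated best with another number, and the other libraries with their own. Such weak correlations do not settle whether the numbers in the labels pair the libraries. With a replicate block the FPKM fit called 0 mitochondrial genes and limma-voom on reads called 11, of which 10 were tRNAs called higher and 1 was MT-RNR1, among 4260 of 11877 genes called (35.9%). The nuclear genes for mitochondrial RNA had 2 calls on reads, 2 with the length trend removed, 6 without both libraries numbered 1, 25 with the replicate block on reads, and 0 to 13 with a library left out, against 5.52%, 3.42%, 8.38%, 35.9% and 0.271% to 20.1% of all genes. The mRNA median log2 fold change was -2.08 after quantile normalization and the tRNA median was 0.20 after quantile normalization and -0.18 with the length trend removed. MT-TC stood at -0.014 after quantile normalization. Calls over all genes were 34 on FPKM, 84 at a pseudocount of 0.1, 79 with FPKM as deposited, 58 scaled to mitochondrial mRNA, 2 after quantile normalization and 0 at a pseudocount of 1, with no filter or with the replicate block. On reads they were 656, and 406 with the length trend removed. The median over all genes was -0.38 with FPKM as deposited and 0.28 scaled to mitochondrial mRNA, against -0.16. The cause of these shifts was not tested.

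With a library left out, differences (sh-JMJD1C minus control) ran from -4.71 to 0.943 percentage points for the share of all mitochondrial genes, -4.82 to 0.821 for mRNA and -0.00299 to 0.000579 for rRNA. They ran from -0.0311 to 0.462 for complex III and -3.12 to 2.44 for complex V. On the log2 scale they ran from -0.88 to 1.21 for MT-ND4L to MT-ND4 and -0.62 to 0.73 for MT-ATP8 to MT-ATP6. The tRNA share stayed between 0.0404 and 0.121 percentage points above the controls. All 16 changes of direction among the single values came from leaving out a library. The other 147 values kept their direction, but some moved in size: the share of all mitochondrial genes differed by -1.62 points without RN7SL genes and the largest other gene in the total, by -2.23 over protein-coding reads and by -4.92 over summed FPKM, against -1.003. Depth limits the rRNAs, MT-TD, MT-TL1 and the 5 tRNAs at 0.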
